A study of Mus musculus with 12 samples.

Results

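The microRNA (miRNA) miR-21 was measured as both strands of its hairpin, the guide strand miR-21 and the passenger strand miR-21*, in 4 mouse breast cancer cell lines. The strands were chosen by name, as the entries of the array that are called mmu-miR-21 and mmu-miR-21*, and are 2 of the 577 miRNAs on the array. The lines 67NR, 168FARN, 4TO7 and 4T1 were read on 3 single-colour Agilent mouse miRNA arrays each, 12 in all, with 100 ng of total RNA taken with Trizol per array. All are labelled wild type, female and Balb/C, from a breast cancer that arose spontaneously, and no treatment is given. The labels call 4T1 metastatic and 67NR, 168FARN and 4TO7 non-metastatic, and 4T1 is the 1 line with the metastatic label, so line and phenotype cannot be told apart. Nothing in the labels tells whether the arrays of 1 line come from separate cultures, so a p-value here covers the spread among these arrays alone, and that spread may be technical. Precision is limited by the small number of arrays.

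A miRNA gene is transcribed as a long precursor from which the enzymes Drosha and Dicer cut a hairpin and then a short duplex. The guide strand of the duplex is loaded into an Argonaute protein and pairs with messenger RNAs mainly through its seed, while the passenger strand is mostly degraded. In many tumours, breast cancer among them, miR-21 is abundant, and its known targets include the tumour suppressor Pdcd4, the matrix protease inhibitor Reck and the growth signalling inhibitors of the Sprouty family. Its promoter is known to be activated by the transcription factors STAT3 and AP-1.

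The mature sequences below are those of the strands that the probes were made for, as RefSeq gives them with GRCm38.p6. The probes target a part of each strand, 19 or 20 bases of the guide and 12 to 15 bases of the passenger. The array's miR-21 is RefSeq's mmu-miR-21a-5p and the array's miR-21* is mmu-miR-21a-3p, and capitals mark the seed, bases 2 to 8 from the 5′ end.
mmu-miR-21a-5p: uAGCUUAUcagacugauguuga
mmu-miR-21a-3p: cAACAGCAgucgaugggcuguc
The hairpin that holds both is shown with the mature strands in capitals.
mmu-miR-21a hairpin: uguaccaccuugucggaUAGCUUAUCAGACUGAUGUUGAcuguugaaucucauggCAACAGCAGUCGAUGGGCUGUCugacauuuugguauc
The hairpin has 92 bases, with the guide at bases 18 to 39 and the passenger at bases 56 to 77. Each mature strand has 22 bases, of which 36.4% are G or C in the guide and 59.1% in the passenger. Among 1738 mature mouse sequences in the RefSeq table, mmu-miR-21c shares the guide's seed and is not on the array. The miRNA miR-590-5p is known to share that seed too, though the search of those sequences did not return it. It was read on all arrays of 67NR, at a level of -1.06 ± 0.09 (log2 of the scaled signal, SD, n = 3), and on no array of 168FARN, 4TO7 or 4T1. The gene lies on the minus strand of chromosome 11, and RefSeq places it within the span of Vmp1, a gene for a membrane protein of autophagy. On mm9, the build in the array files, the guide's probes target positions 86397622 to 86397641 and the passenger's longest target spans 86397584 to 86397598.

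A miRNA was called read on an array where over 50% of its probe's usable spots were well above background, and 141 to 161 miRNAs were read on a 67NR array, 176 to 185 on a 168FARN array, 146 to 158 on a 4TO7 array and 166 to 182 on a 4T1 array. A level is the log2 of the signal relative to a scale for each array, the 75th percentile of the 170 probes that all 12 arrays read. That scale was 358 to 460 signal units in 67NR and 600 to 1213 in the other lines. Values below a floor of -5.58 were set to it. Within a line the arrays correlated at 0.993 or above over the tested miRNAs. The 67NR arrays stood apart, correlating at 0.539 to 0.636 with those of the other lines, and their hur_5 control probes read 180 to 207 signal units against 1.25 to 6.36 elsewhere. The 67NR arrays and the first 168FARN array share 1 slide, and the other 8 arrays share another. Of 6 epithelial miRNAs (the miR-200 family and miR-205), none was read on all arrays of any line. Of 5 mesenchymal miRNAs, 3 (miR-199a-5p, miR-199b and miR-143) were read on all arrays of 168FARN and none on all arrays of another line. The summed signal of all 5 was 336 to 549 in 168FARN and at most 13.9 elsewhere. Of 6 blood cell miRNAs and of 4 muscle miRNAs, 1 each was read on all arrays of 168FARN (miR-142-3p and miR-206) and none on those of another line. Of 2 endothelial miRNAs, miR-126-3p was read on all arrays of every line but 168FARN. The part of these markers, of the control probes and of the slides in the differences below was not tested, except for the slides where a value is given.

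The guide strand was high in 4T1, 168FARN and 4TO7 and far lower in 67NR. In 67NR its signal was 509, 535 and 381 units on arrays 1, 2 and 3. In 168FARN it was 22057, 19187 and 14202 units. In 4TO7 it was 8646, 8358 and 10073 units, and in 4T1 it was 21068, 21952 and 17274 units. The dimmest array outside 67NR was thus far above the brightest 67NR array, and the 168FARN and 4T1 arrays overlapped. The spots of the probe varied by 0.932 to 6.40% (coefficient of variation) within an array, and no spot was saturated.

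After scaling, the levels of miR-21 (log2) were 0.15, 0.26 and 0.09 in 67NR, with a mean of 0.16 ± 0.09 (SD, n = 3). In 168FARN they were 4.18, 4.37 and 4.17, with a mean of 4.24 ± 0.11. In 4TO7 they were 3.85, 3.77 and 3.91, with a mean of 3.84 ± 0.07. In 4T1 they were 4.27, 4.27 and 4.28, with a mean of 4.27 ± 0.01. The order from the highest was 4T1, 168FARN, 4TO7 and 67NR, and the neighbours 4T1 and 168FARN did not differ beyond their spread. In such bulk RNA, fewer cells with the miRNA and less of it per cell cannot be told apart.

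**Figure D1:**
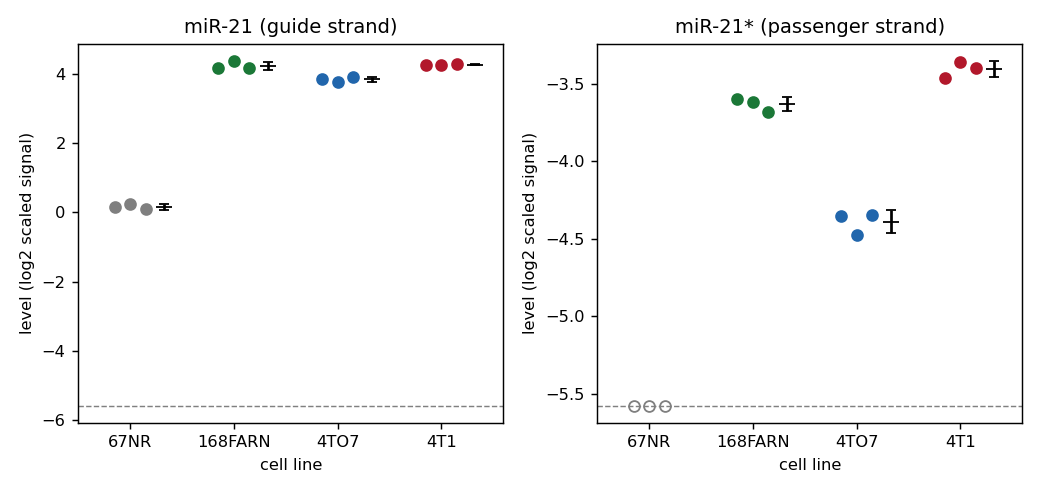
Level of miR-21 (left) and miR-21* (right) on each array, as log2 of the scaled signal, by cell line. Points are arrays (3 per line), beside each line's mean with its SD, and the dashed line is the floor of -5.58, where open points were not read. The guide separates 67NR, at 0.09 to 0.26, from the other lines, at 3.77 to 4.37, and the passenger was read in those other lines alone.

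Which lines differ in the guide was tested with limma over 224 miRNAs, those read on all 3 arrays of at least 1 line, with Benjamini-Hochberg adjusted two-sided p-values called below 0.05. In 4T1, miR-21 was higher than in 67NR by 4.11 ± 0.06 (log2 ± SE), or 17.3-fold with a 95% confidence interval of 15.7 to 19.0 (limma adjusted p = 6.7e-14). Of all tested miRNAs, 32.1% were called higher and 47.3% lower in this comparison, and 7 had a larger difference than miR-21. In 168FARN it was 16.9-fold higher than in 67NR (4.08 ± 0.06, limma adjusted p = 5.02e-14), beside 40.2% of tested miRNAs called higher and 47.8% lower. In 4TO7 it was 12.8-fold higher than in 67NR (3.68 ± 0.06, limma adjusted p = 1.36e-13), beside 31.7% called higher and 48.2% lower. In each of these comparisons the arrays of the lines did not overlap, and all share the 67NR arrays. How many other tested miRNAs had no overlap was not counted, for these or the later comparisons. Without any scaling the differences grew to 42.6-fold, 38.7-fold and 19.2-fold, while scaling on the 75th percentile over every probe made 4T1 28.2-fold higher than 67NR. On the slide that holds 67NR and 1 array of 168FARN, the difference between these lines was 4.02 ± 0.09 (limma adjusted p = 0.000349), where the lone 168FARN array is assumed to vary like those of 67NR, and no slide holds 67NR with 4TO7 or 4T1.

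Among the other 3 lines the guide's differences after scaling were small. In 4T1 miR-21 was 1.35-fold higher than in 4TO7 (0.43 ± 0.06, limma adjusted p = 9.08e-05), with no overlap between the arrays. In this comparison 25% of tested miRNAs were called higher and 35.7% lower, and 38 had a larger difference than miR-21. In 4TO7 the guide was lower than in 168FARN by 1.32-fold (-0.40 ± 0.06, limma adjusted p = 0.000108), again without overlap, beside 35.3% of tested miRNAs called higher and 39.3% lower. Between 4T1 and 168FARN the difference was 0.03 ± 0.06, or 1.02-fold, with a 95% confidence interval of 0.931 to 1.12-fold (limma adjusted p = 0.698), where 34.4% of tested miRNAs were called higher and 39.7% lower. Within the slide shared by 4T1, 4TO7 and 2 arrays of 168FARN, the difference from 4TO7 was 0.43 (limma adjusted p = 0.000332) and that from 168FARN 0.01 (limma adjusted p = 0.975). These small differences depended on the scaling: quantile normalization gave 0 for 4T1 against 4TO7 and -0.24 (limma adjusted p = 0.0213) against 168FARN, while the 75th percentile of all probes gave 0.27 (limma adjusted p = 0.0159) against 168FARN. Without any scaling, 4T1 differed from 4TO7 by 1.15 and 4TO7 from 168FARN by -1.02.

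The labels set the metastatic line 4T1 against the other 3. Against their mean, miR-21 was 2.88-fold higher in 4T1 (1.52 ± 0.05, 95% confidence interval 1.41 to 1.64, limma adjusted p = 1.3e-10), beside 28.1% of tested miRNAs called higher and 59.4% lower. That value is the average of differences of 4.11 from 67NR, 0.03 from 168FARN and 0.43 from 4TO7, and the 4T1 arrays overlapped those of 168FARN. Without scaling it was 4.70-fold.

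The passenger strand miR-21* was read on every array of 168FARN, 4TO7 and 4T1 and on none of 67NR. Its signal was 2.68, 1.62 and 6.43 units on the 67NR arrays, where 0, 0 and 1 of its 5 spots were well above background. The 168FARN arrays gave 100.1, 75.7 and 61.4 units. The 4TO7 arrays gave 29.3, 27.6 and 33.0 units, and the 4T1 arrays 99.2, 110.4 and 84.4 units. The 4TO7 arrays were below all 168FARN and 4T1 arrays, and the signals of the last 2 lines overlapped before scaling. Spots varied by 3.27 to 14.0% within the 9 arrays that read it.

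The levels of miR-21* (log2) on the 168FARN arrays were -3.60, -3.62 and -3.69. Those on the 4TO7 arrays were -4.35, -4.48 and -4.35, and those on the 4T1 arrays -3.47, -3.36 and -3.40. Their means were -3.63 ± 0.05, -4.39 ± 0.07 and -3.41 ± 0.05 (SD, n = 3), and the order was 4T1, 168FARN and 4TO7, with no overlap between the scaled arrays of any pair of lines. All 67NR arrays lie at the floor, where values have no order. The levels of the strands come from different probes and are not compared with each other.

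In 4T1, miR-21* was 1.98-fold higher than in 4TO7 (0.98 ± 0.04, limma adjusted p = 4.14e-09), and 14 of the 224 tested miRNAs had a larger difference. It was 1.17-fold higher than in 168FARN (0.23 ± 0.04, limma adjusted p = 0.000515). In 4TO7 it was 1.69-fold lower than in 168FARN (-0.76 ± 0.04, limma adjusted p = 1.68e-08). Within the slide these lines share, 4T1 differed from 4TO7 by 0.98 and from 168FARN by 0.24 (limma adjusted p = 0.00445). The SEs above pool the spread of all 4 lines. The 67NR arrays, all at the floor, add an SD of 0 that lowers these SEs. The fit within the slide holds no 67NR array. The call against 168FARN was lost without scaling (0.33, limma adjusted p = 0.0871), with the gene-level total signal (0.14, limma adjusted p = 0.057) and with the floor divided by 2 (limma adjusted p = 0.243). With the normexp background correction, which adds an offset of 50 units to signals of this size, no difference of miR-21* was called.

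Against 67NR, folds of the passenger are lower bounds, computed over the lowest level read on each 67NR array (-4.64, -5.08 and -4.76). The p-values are those of the fit on floored values, where 67NR has an SD of 0, and the bounds themselves were not tested. The strand was at least 2.67-fold higher in 4T1 (limma adjusted p = 5.38e-13), at least 2.28-fold higher in 168FARN (limma adjusted p = 1.23e-12) and at least 1.35-fold higher in 4TO7 (limma adjusted p = 1.29e-10). Against the mean of the other 3 lines, 4T1 was at least 1.83-fold higher (limma adjusted p = 8.44e-11), and its arrays lay above all 9 others. Among 168FARN, 4TO7 and 4T1, both strands were called in the same direction for 4T1 against 4TO7 and for 4TO7 against 168FARN. Between 4T1 and 168FARN the passenger alone passed. The passenger's calls that involve 67NR rest on floored values there, and it was tested because other lines read it. Those calls are therefore no test of agreement between the strands. Agreement in sign alone, whether called or not, was common among the 11 pairs of guide and passenger read on all arrays of 168FARN, 4TO7 and 4T1. Both strands had the same sign in 8 pairs for 4T1 against 168FARN. That number was 9 for 4T1 against 4TO7 and 10 for 4TO7 against 168FARN.

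**Figure D2:**
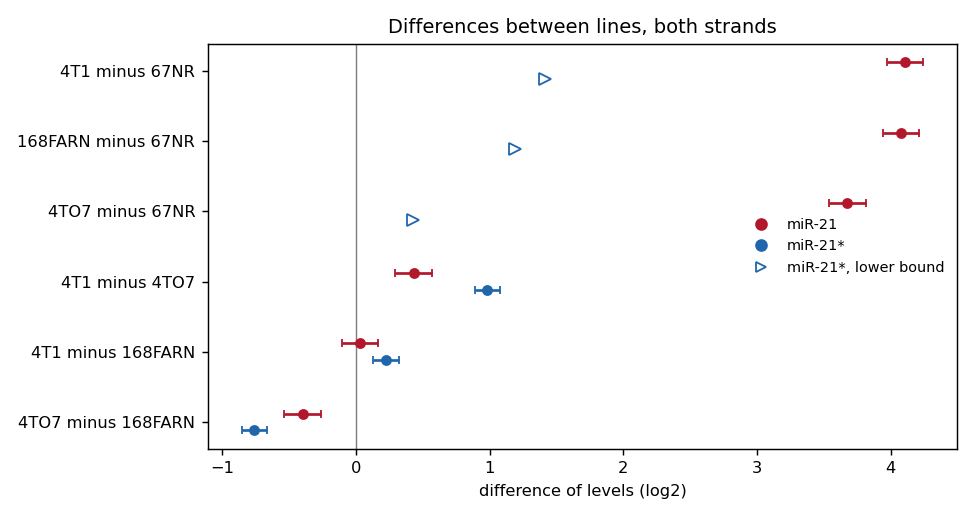
Difference between lines (log2) for the guide miR-21 and the passenger miR-21*, with 95% confidence intervals from the limma fit of 12 arrays. Open triangles are lower bounds, where miR-21* was not read in 67NR. The differences from 67NR are 3.68 to 4.11 for the guide, and those among the other lines lie between -0.76 and 0.98 for both strands.

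Each strand was read by several probes that differ in the length of their target. The guide has a probe with a target of 20 bases, used above, and one with a target of 19 bases, each on 10 spots. The shorter probe gave 208 ± 24.4 units for 67NR and 9287 ± 1716 for 168FARN, 4449 ± 362 for 4TO7 and 10344 ± 1608 for 4T1 (SD, n = 3). Its differences of 4T1 were 4.33 from 67NR, 0.06 from 168FARN and 0.49 from 4TO7, against 4.11, 0.03 and 0.43 with the probe used above. The order of the lines was the same with both probes.

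The passenger has 4 probes with targets of 12, 13, 14 and 15 bases on 5 spots each, and the longest was used. With the target of 14 bases the signal was 2.22 ± 0.847 units in 67NR, 52.0 ± 15.4 in 168FARN, 19.8 ± 2.18 in 4TO7 and 63.7 ± 8.33 in 4T1, and it was read on 0, 3, 2 and 3 arrays. Its differences of 4T1 were 0.22 from 168FARN and 0.97 from 4TO7, against 0.23 and 0.98 with the longest. The probe for 13 bases was read on 1 array of 168FARN and 1 of 4T1, and that for 12 bases, at -2.10 to 5.09 units on average, on none. Detection of miR-21* therefore rested on the longest probes.

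**Figure D3:**
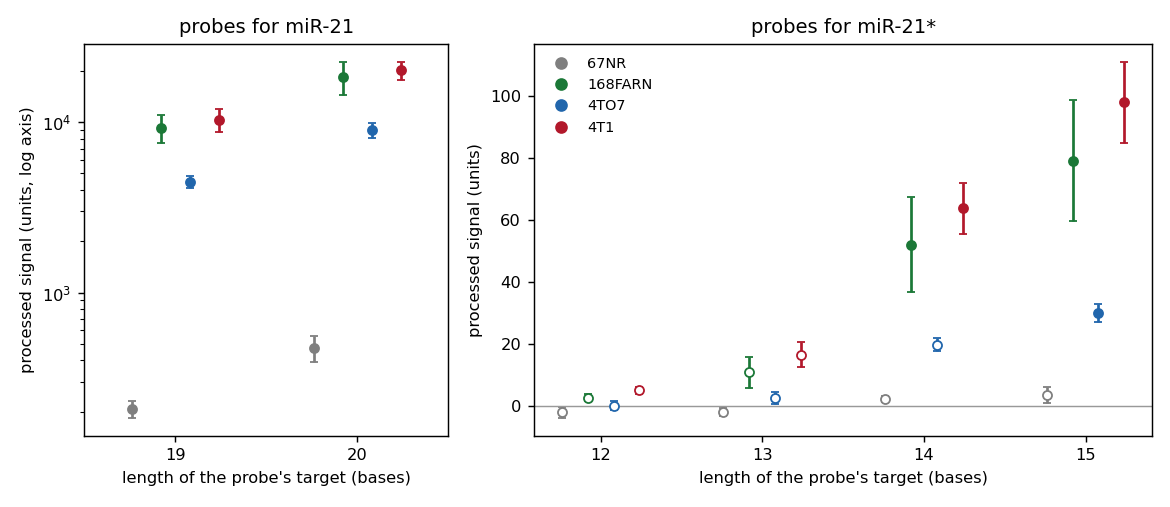
Processed signal of each probe for miR-21 (left, log axis) and miR-21* (right, linear axis) against the length of its target in bases, as line means with SD over 3 arrays. Open points mark probes not read on all 3 arrays of the line. In 168FARN, 4TO7 and 4T1 the passenger's signal rises with target length, up to 98.0 units in 4T1, and both guide probes order the lines alike.

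Whether the strands moved in step was asked of the ratio of guide to passenger signal on each array, whose change between lines does not depend on the probes' affinities. The ratio can be had on the 9 arrays of 168FARN, 4TO7 and 4T1, and 11 of the 103 guide and passenger pairs on the array were read on all of them. For miR-21 its log2 was 7.87 ± 0.10 in 168FARN, 8.23 ± 0.03 in 4TO7 and 7.68 ± 0.05 in 4T1 (SD, n = 3). The arrays ranged from 7.78 to 7.99 in 168FARN, from 8.20 to 8.25 in 4TO7 and from 7.64 to 7.73 in 4T1, so no lines overlapped. This was not particular to miR-21, since among the 11 pairs miR-7a, miR-9, miR-15b and miR-31 had no overlap between lines either.

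The ratio in 4T1 was 0.682 times that in 4TO7 (-0.55 ± 0.06, limma adjusted p = 7e-06 over 11 pairs). Of these pairs, 36.4% were called lower in 4T1 and 0% higher, and the median change was -0.12. The called ones were miR-7a (-1.24 ± 0.07), miR-21, miR-30e (-0.18 ± 0.06) and miR-15b (-0.16 ± 0.06), so that miR-21 had the second largest fall. In 4TO7 the ratio of miR-21 was 1.28 times that in 168FARN (0.36 ± 0.06, limma adjusted p = 0.000198), beside 36.4% of pairs called in each direction. In 4T1 it was 0.875 times that in 168FARN (-0.19 ± 0.06, limma adjusted p = 0.0178), beside 54.5% of pairs called lower and 18.2% higher. That last call was lost without the second 168FARN array (-0.14, limma adjusted p = 0.0754) or without the second 4T1 array (-0.17, limma adjusted p = 0.0694).

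The strand changes do not depend on the scaling of an array, except under quantile normalization, but on how the dim passenger signal is treated. With normexp the change between 4T1 and 4TO7 turned to 0.36 (limma adjusted p = 0.00324), and that between 4TO7 and 168FARN to -0.42 (limma adjusted p = 0.000604). With the mean of all probes, 2 of which read miR-21* on few or no arrays, the changes were -0.03 and -0.04 and were not called.

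**Figure D4:**
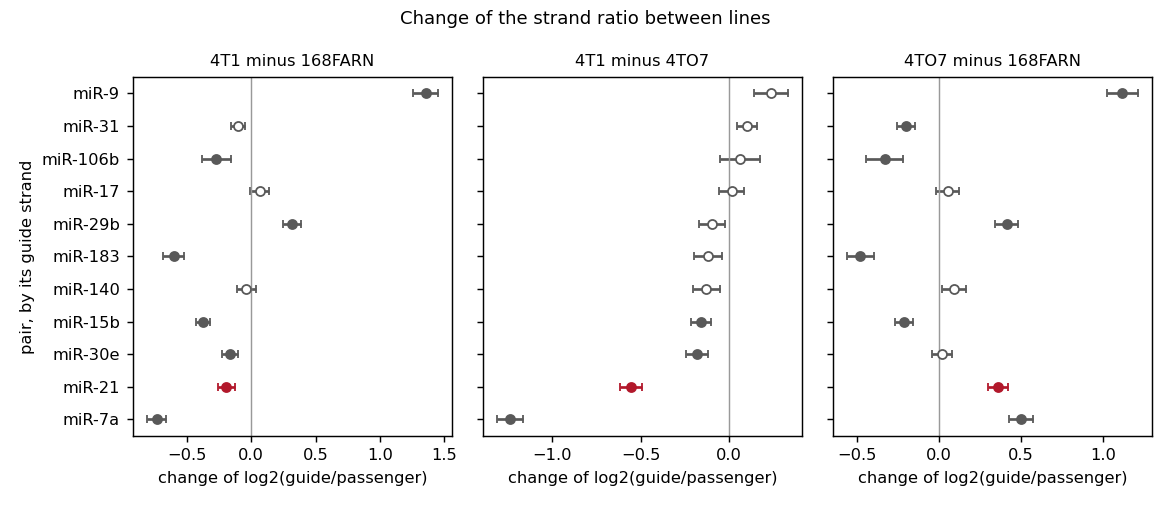
Change of the log2 ratio of guide to passenger between lines for the 11 pairs read on all 9 arrays, in 3 panels for 4T1 minus 168FARN, 4T1 minus 4TO7 and 4TO7 minus 168FARN. Points are fitted changes with their SE, filled where the adjusted p was below 0.05 and red for miR-21, and in the middle panel miR-21 fell by 0.55, next to miR-7a.

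Within 5 Mb of miR-21 on chromosome 11, the array holds miR-301a at 529 kb (mm9 positions 86926558 to 86926578) and both strands of miR-142 at 1173 kb. For miR-301a the mean level of 67NR was -0.43 ± 0.04 and that of 168FARN was -1.24 ± 0.10, while 4TO7 had -1.04 ± 0.02 and 4T1 had -0.28 ± 0.03. It was thus higher in 67NR than in 168FARN and 4TO7, while miR-21 was lower in 67NR than in both. Its difference between 168FARN and 67NR was -0.81, against 4.08 for miR-21, and between 4T1 and 67NR it was 0.15 ± 0.05 (limma adjusted p = 0.00986). The blood cell miRNA miR-142-3p was read in 168FARN alone, at -4.70 ± 0.08, and miR-142-5p in no line. The large gap between 67NR and the other lines was therefore not seen at miR-301a.

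The profile most like that of the guide was sought among the 95 other miRNAs read on all 12 arrays, by the root mean square difference between line means after each profile was centred. The nearest were miR-31 (0.319), let-7c (0.342), let-7d (0.430), miR-709 (0.449) and miR-31* (0.455), against a median of 2.15 over the candidates (log2, 4 lines). All were low in 67NR, miR-31 for example at -2.53 ± 0.01 there and at 0.88 ± 0.04 in 168FARN and 1.05 ± 0.06 in 4T1. They differed from the guide in the order of those others by line means, since miR-31, let-7d and miR-31* were highest in 4TO7, and let-7c and miR-709 in 168FARN. For let-7d, 4TO7 was not beyond its spread from 4T1 (limma adjusted p = 0.573). For let-7c, 168FARN was not beyond its spread from 4TO7 (limma adjusted p = 0.439). The guide was highest in 4T1, though not beyond its spread from 168FARN.

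For the passenger, with 118 candidates read on the 9 arrays of the 3 lines that hold it, the nearest were miR-362-3p (0.0558), miR-149 (0.0584), miR-222 (0.0938), miR-674* (0.170) and miR-500 (0.173), against a median of 0.561. All were lowest in 4TO7 and highest in 4T1. Their 67NR levels differed, since miR-362-3p, miR-674* and miR-500 were read on no 67NR array, miR-149 was at -3.67 ± 0.21 there and miR-222 at 0.06 ± 0.07, its highest level. A pattern shared over 3 or 4 lines is a description, and these miRNAs share the arrays and their scaling with miR-21.

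**Figure D5:**
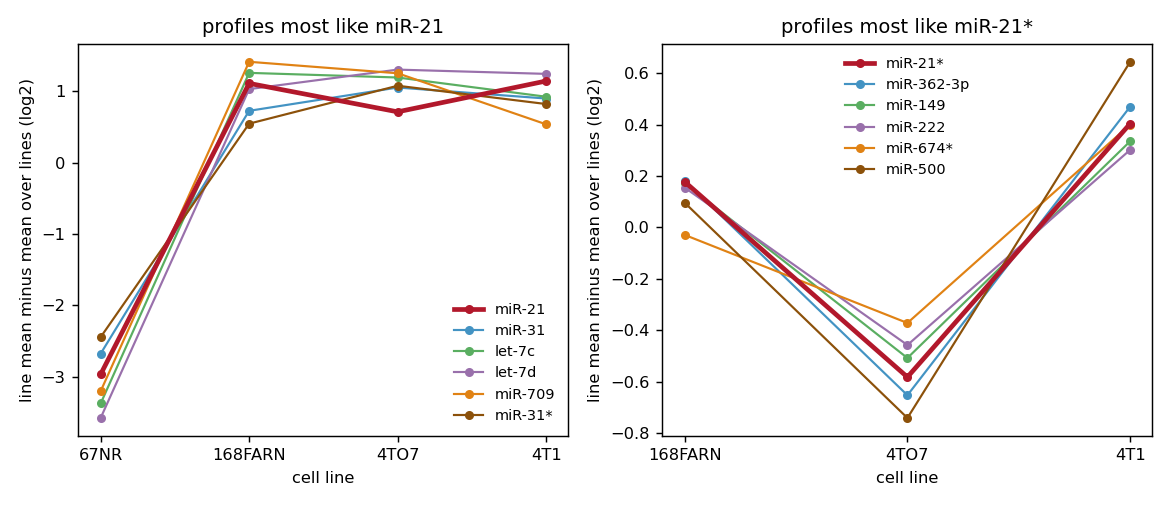
Line means (log2, centred on the mean over lines) of the 5 miRNAs most like miR-21 over 4 lines (left) and most like miR-21* over the 3 lines where it was read (right), with the strand itself as the thick line. On the left all profiles are low in 67NR, and on the right all are lowest in 4TO7.

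Among 7 miRNAs known to be induced by STAT3, AP-1 or NF-kB, miR-21 included and all tested, 5 were higher in 4T1 than in 4TO7, 1 was lower and 1 did not pass, with a median difference of 0.43 against 0 over all tested miRNAs, of which 25% were called higher and 35.7% lower. The list's median there is the difference of miR-21 itself, which quantile normalization set to 0. The median over all tested miRNAs lies at miRNAs floored in both lines. Those higher were miR-21, miR-155 (2.70), an inflammation-linked miRNA, miR-222 (0.76), miR-221 (0.47) and miR-146a (0.19, floored in 4TO7), and miR-146b was lower (-1.77, floored in 4T1). Between 4TO7 and 168FARN, 6 were lower in 4TO7 and 1 higher, with a median of -0.61 against 0, beside 39.3% of all tested miRNAs called lower and 35.3% higher. Against the mean of the other 3 lines, 2 were higher in 4T1 and 5 lower, with a median of -0.59 against -0.34, beside 28.1% called higher and 59.4% lower. Against 168FARN, 2 were higher in 4T1, 2 lower and 3 did not pass, beside 34.4% called higher and 39.7% lower. Against 67NR the members split, with 3 higher in 4T1, 3 lower and 1 not passing, beside 32.1% called higher and 47.3% lower. Those higher were miR-21, miR-155 (not read in 67NR, and at -2.19 ± 0.03 in 4T1) and miR-146a (not read in 67NR, and at -5.39 ± 0.06 in 4T1, close to the floor). Those lower were miR-221 (-2.48), miR-222 (-2.07) and miR-181b (-2.15, at -5.51 in 4T1, close to the floor). The member not passing, miR-146b, lay at the floor in both lines.

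Among 17 miRNAs known as raised in breast cancer, miR-21 included and all tested, 5 were higher and 11 lower in 4T1 than in 67NR, with a median of -1.82 against -0.05 over all tested miRNAs, of which 32.1% were called higher and 47.3% lower. Beside miR-21, those higher were miR-155, miR-182, miR-96 and miR-27a (2.29). Of these, miR-155 and miR-182 were not read in 67NR, so their calls rest on floored values there. Those lower included miR-20a, at 4.33 ± 0.01 in 67NR and 1.47 ± 0.03 in 4T1, and miR-19b, at 4.92 ± 0.07 and 2.30 ± 0.01, both of the growth-promoting miR-17-92 cluster. The metastasis-linked miR-10b was read on all arrays of 67NR alone, at 0.27 ± 0.02. Against 4TO7, 7 were higher in 4T1, 6 lower and 4 did not pass, with a median of 0 in both the list and all tested miRNAs, beside 25% called higher and 35.7% lower. The list's median there is that of miR-10b, at the floor in 168FARN, 4TO7 and 4T1 and counted as not passing between these lines. The median of 0 over all tested miRNAs likewise lies at miRNAs floored in 4TO7 and 4T1 alike. Against 168FARN, 11 were higher, 2 lower and 4 did not pass, with a median of 0.28 against 0, beside 34.4% called higher and 39.7% lower, and miR-21 was among those that did not pass. Against the mean of the other 3 lines, 4 were higher, 11 lower and 2 did not pass, with a median of -0.28 against -0.34, beside 28.1% called higher and 59.4% lower. Both lists were named from general knowledge and hold miR-21 itself, so they are no independent check of it.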

How the data were processed

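The authors deposited intensity values that, per the file headers, Feature Extraction 10.2.1.3 had background-subtracted, with no scaling between arrays. A value table of the whole series holds identical numbers (largest difference 0, array medians 1.20 to 1.97), so its scale is linear and uncentred.

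Control spots and 284 to 508 spots per array marked as uneven or outliers were left out of 12493. Spots were averaged over 1712 probes, values were divided by the array's 75th percentile among 170 probes that all arrays read, a floor of 0.0209 was set (the median over arrays of the lowest read value) and log2 was taken. The brightest probe stood for each miRNA. limma 3.58.1 in R 4.3.3 (data.table package, version 1.17.8) fitted 4 lines to 12 arrays (8 residual degrees of freedom) for 224 miRNAs, and 3 lines to 9 arrays for the strand ratios. Where no array of a line read a miRNA, its fold is a lower bound.

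Alternatives were other scalings, background correction, the gene-level total signal, probe summary, filters, floors, variance models, slides, a replicate block and each array left out; the first slide alone was added after seeing the data. The members, the lists and the named neighbours, profiles and pairs (the nearest within 5 Mb, the 5 most alike, the largest called ratio changes) were chosen with earlier results of these data known. Sequences and the host gene come from RefSeq tables of GRCm38.p6, and both strands matched.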

Additional observations from a re-analysis of the deposited data

How the results depend on the processing

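Over 17 tested differences and 455 alternative values, 432 kept direction and call, 14 lost the call (all but 1, at 0, in the same direction), 1 gained it and 8 turned; the cause was not tested unless stated. The guide's differences from 67NR kept both under all alternatives run. For miR-21 between 4T1 and 168FARN, the 75th percentile of all probes gave 0.27, quantile normalization -0.24 and the total signal -0.0943, and leaving out an array gave -0.0034 to 0.10, the lowest without the third 168FARN array. Between 4T1 and 4TO7, quantile normalization, which gives equally ranked probes the same value, gave 0. With normexp, miR-21* differed by 0.0887 (4T1 against the mean), 0.050, 0.0960 and 0.12 (against 67NR, 168FARN and 4TO7), -0.0460 and -0.0699 (168FARN and 4TO7 against 67NR) and -0.0240 (4TO7 against 168FARN), and the strand ratio by -0.0570, 0.36 and -0.42. With the mean of all probes the ratio changed by -0.0744, -0.0346 and -0.0398. For miR-21* between 4T1 and 168FARN, no scaling gave 0.33, the total signal 0.14 and the floor divided by 2 gave 0.23 with the call lost. Leaving out an array gave strand ratio changes of -0.24 to -0.14 between 4T1 and 168FARN. Testing only miRNAs read on all arrays, fewer by construction, gave 82, 87, 78, 70, 91, 86 and 75 calls for the 7 comparisons in the order of the text on 4T1 (mean, 67NR, 168FARN, 4TO7), then 168FARN and 4TO7 against 67NR and 4TO7 against 168FARN.

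Scalings moved the median of all tested miRNAs, for 4T1 against the mean from -0.34 to -0.04 (all probes), 0.28 (none) and -0.14 (quantile), and the calls from 63 higher and 133 lower to 93 and 98, 111 and 66, and 88 and 107. Against 67NR, 72 and 106 became 90 and 87 or, unscaled, 104 and 66; against 4TO7, 56 and 80 became 80 and 40 or 105 and 7; unscaled, 90 and 107 became 107 and 72 for 168FARN against 67NR, and 79 and 88 became 38 and 127 for 4TO7 against 168FARN. Relative to that median, miR-21 in 4T1 against 67NR stood at 4.16, 4.82, 5.27 and 4.14, and against 4TO7 at 0.43, 0.71, 0.81 and 0.

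The replicate numbers did not pair the arrays (correlations of -0.80 to 0.56 in 18 pairs, 6 over 0.1, with 1 of 12 arrays closest to its own number), and a replicate block left the guide's 4T1 difference from 4TO7 at 0.43 and changed no call. Signal over background limits miR-21*, at 27.6 to 110.4 units where read.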
